A study of Mus musculus with 9 samples.

Results

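Serotonin acts in the hippocampus through a family of membrane receptors, and the transcripts of 10 of them were followed here: Htr1a, Htr1b, Htr2a, Htr2c, Htr3a, Htr4, Htr5a, Htr5b, Htr6 and Htr7. They were chosen by gene symbol, as 10 of the 22255 genes in the expression table, and each of the 10 symbols matched 1 row. RNA had been sequenced from hippocampal synaptoneurosomes, a fraction enriched in pinched-off synaptic terminals and spines, of C57Bl/6J mice. All the mice were Fmr1 KO, which lack the RNA-binding protein FMRP and model fragile X syndrome, so the genotype was shared by both groups and its effect was not measured. The 2 groups had received AM6545 (4 samples, lettered A, B, C and E) or vehicle (5 samples, lettered A to E) in a sub-chronic course. AM6545 is an antagonist of the cannabinoid receptor CB1 that enters the brain poorly, and the title of the series raises the question of a serotonergic mechanism. Dose, duration, age and sex are not given in the sources used here. The labels do not say that each sample came from a separate mouse, so p-values measure the spread between these samples, which may be partly technical.

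Serotonin receptors are all G protein-coupled receptors except the 5-HT3 type, which is a cation channel. The Htr1 and Htr5 receptors couple to Gi/o proteins, which lower cAMP and open inward-rectifying potassium channels. The Htr2 receptors couple to Gq/11 and phospholipase C, and the Htr4, Htr6 and Htr7 receptors couple to Gs and raise cAMP. In the hippocampus, serotonin comes from axons of the raphe nuclei, so the receptors are made locally while the cells that make serotonin lie elsewhere.

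The proximal promoters of 3 members are shown because these genes are set against each other below: Htr1a had the most counts of the family, and Htr2a and Htr2c, both coupled to Gq/11, varied most between samples. The sequences are from RefSeq on build GRCm38.p6 and run from 250 to 51 bases before the annotated start, 5′ to 3′ on the strand of the gene. Capitals mark CpG dinucleotides. The Htr1a window lies at chr13:105443443-105443642 on the plus strand, that of Htr2a at chr14:74640624-74640823 on the plus strand, and that of Htr2c at chrX:146962263-146962462 on the plus strand.
Htr1a: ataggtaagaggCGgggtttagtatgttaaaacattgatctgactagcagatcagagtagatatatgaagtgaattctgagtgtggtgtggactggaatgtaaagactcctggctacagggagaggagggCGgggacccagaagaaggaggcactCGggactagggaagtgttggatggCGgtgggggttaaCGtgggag
Htr2a: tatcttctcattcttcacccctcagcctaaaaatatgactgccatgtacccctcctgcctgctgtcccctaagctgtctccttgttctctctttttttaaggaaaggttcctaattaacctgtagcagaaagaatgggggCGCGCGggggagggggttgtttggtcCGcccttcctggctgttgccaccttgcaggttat
Htr2c: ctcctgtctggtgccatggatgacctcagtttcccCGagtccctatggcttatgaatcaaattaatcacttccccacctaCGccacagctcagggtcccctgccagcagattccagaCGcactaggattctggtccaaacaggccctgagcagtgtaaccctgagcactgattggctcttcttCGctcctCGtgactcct
The windows held 5 CpG in Htr1a, 4 in Htr2a and 5 in Htr2c, beside a median of 4 over 32851 promoter windows of the same 200 bases. Their GC content was 50.5%, 51.0% and 54.5%, beside a median of 51.5%. The Htr7 window, by contrast, held 34 CpG at a GC content of 81.5%. In all, 7 members had a window that was examined, with 8 windows between them. The letters GGGCGG, searched on both strands, were in the Htr1a window, the Htr2a window and 1 of 2 Htr6 windows, and in 24.6% of all windows. Neither TATAAA (9.14% of all windows) nor TGACGTCA (0.828%) was in a window of these members. These matches describe the letters only, and no chromatin or binding measurement was made in the series.

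Libraries held 17628922 to 27263393 estimated counts, and 16470 to 16883 genes had at least 1 count. No 2 libraries were alike enough to be 1 library deposited under 2 names: over the 36 pairs, the chi-square per degree of freedom was 10.03 to 89.98. Markers of the labelled tissue were present in every sample, with the summed level of 6 CA1 pyramidal cell genes at 467 to 580 CPM and of 8 dentate granule cell genes at 256 to 364 CPM. CPM values are the estimated counts of a gene scaled to the library total and to its TMM factor. Fmr1 itself had 9.45 to 11.1 CPM under AM6545 and 10.3 to 13.3 CPM under vehicle. Fmr1 reads remained in these libraries labelled Fmr1 KO, and where they lie in the transcript is not known from gene counts. Choroid plexus genes differed far more between samples than any receptor did: the sum of 12 such genes ran from 71.0 to 1038 CPM under AM6545 and from 58.8 to 4657 CPM under vehicle, with vehicle A and vehicle D the highest.

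All 10 receptors were expressed above the count filter, and none differed between AM6545 and vehicle after adjustment over all genes. In edgeR's quasi-likelihood test over 14512 genes, 0 of the 10 receptors passed an adjusted p of 0.05, and the background was the same, at 0% of all genes tested (smallest adjusted p = 0.653). DESeq2 (1160 genes at an unadjusted p under 0.05, 1 of them a receptor) and limma-voom (1823 genes, 0 of them receptors) also called 0 genes after adjustment. At an unadjusted p under 0.05, 1 of the 10 receptors (Htr3a) was counted, beside 1047 genes or 7.21% of all genes tested. Htr3a was also the 1 receptor whose group ranges did not overlap, beside 210 genes or 1.45% of all genes tested. Both counts for the family rest on that 1 gene. The mean was higher under AM6545 for 7 receptors and lower for 3, with a median log2 fold change of 0.10, against -0.01 over all genes tested, of which 48.2% were higher. The median size of the log2 change regardless of direction was 0.11 for the receptors and 0.12 for all genes tested.

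**Figure D1:**
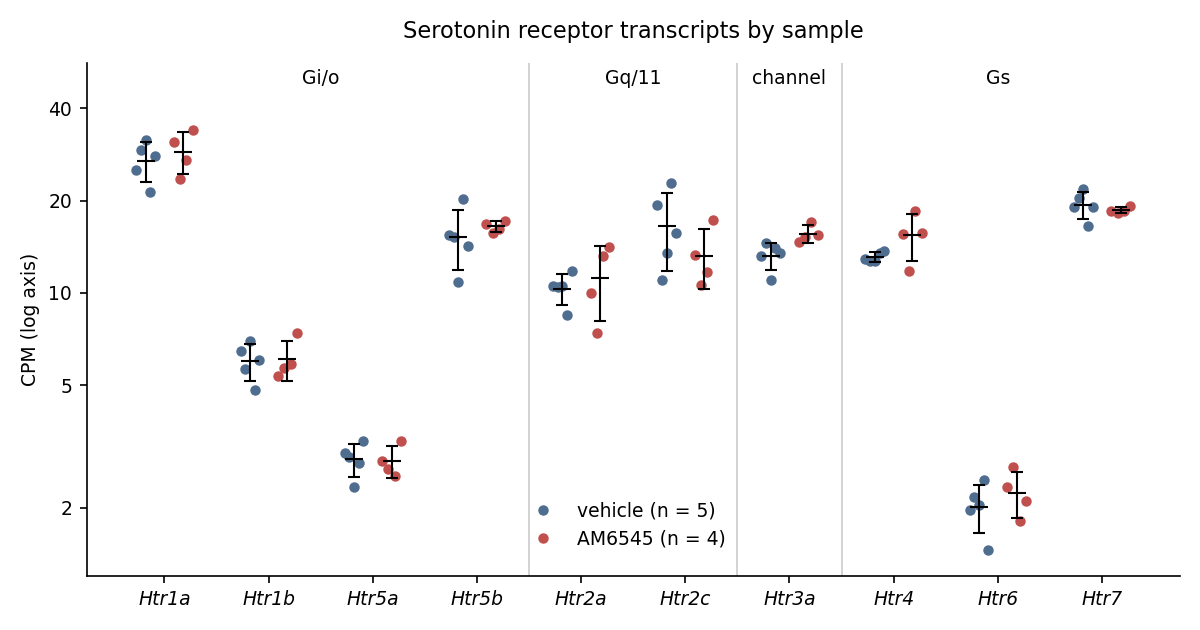
Level of each serotonin receptor transcript in CPM on a log axis, 1 point per sample, with the mean and SD of 5 vehicle samples (blue) and 4 AM6545 samples (red), grouped by coupling. The groups overlap for every receptor except Htr3a, where the AM6545 samples begin at 14.7 CPM and the vehicle samples end at 14.5 CPM.

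Htr1a encodes the 5-HT1A receptor, which hyperpolarises hippocampal pyramidal cells and is also the cell-body autoreceptor of raphe neurons. It had the highest count of the family, 434 to 853 per library. AM6545 samples A, B, C and E had 31.0, 23.5, 27.1 and 33.9 CPM. Vehicle samples A to E had 25.1, 29.2, 31.5, 21.3 and 27.9 CPM. The groups covered nearly the same range, and both the highest sample (AM6545 E) and the second lowest (AM6545 B) had received the compound. The means were 28.9 ± 4.53 CPM (SD, n = 4) and 27.0 ± 3.97 CPM (SD, n = 5), which gave a log2 fold change of 0.10 (95% interval -0.19 to 0.38, edgeR adjusted p = 0.843).

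Htr1b encodes the 5-HT1B receptor, which sits on axon terminals and holds back transmitter release. It ranged from 5.38 to 7.39 CPM under AM6545 and from 4.82 to 6.96 CPM under vehicle, on 104 to 186 counts per library. The highest sample was again AM6545 E and the lowest vehicle D, as for Htr1a. Its log2 fold change was 0.03 (95% interval -0.30 to 0.35, edgeR adjusted p = 0.966). The gene model of Htr1b is overlapped on the opposite strand by the antisense gene D430036J16Rik, and whether reads were assigned by strand is not given in the sources used here, so the Htr1b level is uncertain to that extent.

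Htr5a and Htr5b encode the 5-HT5 receptors, of which Htr5b makes no functional receptor in humans. Htr5a was low, with 46 to 84 counts per library, 2.84 ± 0.333 CPM under AM6545 (SD, n = 4) and 2.87 ± 0.354 CPM under vehicle (SD, n = 5). Its spread over the 9 samples, a coefficient of variation of 11.3%, was no larger than the 12.4% that counting error alone gives at this depth. Htr5b was more abundant, with 16.7, 15.7, 16.2 and 17.2 CPM in AM6545 samples A, B, C and E and with 15.4, 15.3, 10.9, 20.3 and 14.2 CPM in vehicle samples A to E. The AM6545 samples lay close together and inside the vehicle range, whose ends were vehicle C and vehicle D. The log2 fold change was -0.02 for Htr5a (95% interval -0.40 to 0.36, edgeR adjusted p = 0.979) and 0.11 for Htr5b (95% interval -0.20 to 0.42, edgeR adjusted p = 0.828). The difference in Htr5b moved in opposite directions with 2 vehicle libraries: it was 1.26 CPM with all samples, 2.52 CPM without vehicle D and 0.176 CPM without vehicle C (exact permutation p = 0.524, 0.0286 and 0.943). Leaving out vehicle D separates the groups fully, so 0.0286 is the smallest p these numbers allow, and no conclusion is drawn from it. The processed pseudogene Gm8217 overlaps the gene model of Htr5b on the opposite strand, but the blastn search found 0 genes with a similar transcript for Htr5b. For Htr1b the search found 1, D430036J16Rik, with a longest shared stretch of 729 bases. The uncertainty given for Htr1b therefore does not hold to the same extent for Htr5b. Stretches below the length limit of the search were not looked for.

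Htr2a encodes the 5-HT2A receptor, an excitatory receptor of cortical and hippocampal neurons and the main target of psychedelics. AM6545 samples A, B, C and E had 10.03, 7.41, 13.2 and 14.1 CPM. Vehicle samples A to E had 10.5, 10.4, 10.5, 8.46 and 11.8 CPM. The AM6545 samples held both the lowest and the 2 highest values, so their SD was 3.07 CPM (n = 4) against 1.19 CPM under vehicle (n = 5). The log2 fold change was 0.12 (95% interval -0.25 to 0.48, edgeR adjusted p = 0.854), and leaving out AM6545 E or AM6545 B gave -0.02 and 0.27.

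Htr2c encodes the 5-HT2C receptor, whose RNA is edited and which is known to be far more abundant in the choroid plexus than in neurons. It had the largest mean difference of the family and the largest spread. AM6545 samples A, B, C and E had 13.3, 10.6, 11.7 and 17.3 CPM. Vehicle samples A to E had 19.3, 11.1, 13.5, 22.9 and 15.7 CPM. Vehicle A and vehicle D were the 2 highest samples, and the other 3 vehicle samples lay within the AM6545 range. The means were 13.2 ± 2.93 CPM (SD, n = 4) and 16.5 ± 4.69 CPM (SD, n = 5). The log2 fold change was -0.31 (SE 0.20, 95% interval -0.74 to 0.11, edgeR adjusted p = 0.675, lower than the vehicle mean in 3 of 4 samples). Over the 9 samples its coefficient of variation was 27.5%, against 5.43% from counting error.

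Htr2c was higher in the samples with more choroid plexus transcripts. All 12 of 12 choroid plexus markers had a lower mean under AM6545 (0 past the adjusted threshold, 2 at an unadjusted p under 0.05, median log2 fold change -1.46). Their summed levels are those given above, Ttr (transthyretin, secreted by the choroid plexus) made up most of them, and Aqp1 was at 0 in vehicle C. Across the 9 samples, Htr2c correlated with the mean log2 level of these markers at Pearson r = 0.75 (exact permutation p = 0.0211) and Spearman rho = 0.75 (exact permutation p = 0.0255). After Benjamini-Hochberg adjustment over the 150 correlations of 10 receptors with 15 marker lists, the Pearson p was 0.361. Without the 2 samples farthest from the median marker level, AM6545 C and vehicle C, r was 0.93. Both had the lowest marker levels, so this r still includes vehicle A and vehicle D. As deviations from the group means r was 0.74 (exact permutation p = 0.0538, adjusted p = 0.582). The log2 fold change of Htr2c was -0.16 with the choroid plexus level as a covariate, and with 1 sample left out it ran from -0.47 (without AM6545 E) to -0.16 (without vehicle D). Without vehicle A and vehicle D, a choice made after these levels were seen, it was -0.02, and the difference of the means was -0.151 CPM in place of -3.23 CPM. These 2 samples were also the highest in Htr2c itself. Leaving them out brings the value nearer 0 whatever their marker level, so no conclusion is drawn from it. With ependymal markers r was 0.79 (rho = 0.73, exact permutation p = 0.0136, adjusted p = 0.361), and 0.50 without vehicle A and vehicle D. Of these markers, 6 of 6 tested had a lower mean under AM6545, 0 past the adjusted threshold and 4 at an unadjusted p under 0.05. Over all genes tested, 7.21% were at that unadjusted threshold. The 8 genes of the ependymal list summed to 11.7 to 13.8 CPM under AM6545 and 12.7 to 28.5 CPM under vehicle. With 6 CA1 pyramidal cell markers r was -0.75 (rho = -0.70, exact permutation p = 0.0210, adjusted p = 0.361), and -0.70 without AM6545 A and vehicle D. Of these 6, 5 had a higher mean under AM6545, with sums of 537 to 580 CPM against 467 to 570 CPM. With 12 markers of interneurons from the caudal ganglionic eminence (CGE) r was 0.71 (rho = 0.58, exact permutation p = 0.0309, adjusted p = 0.385), but -0.23 without vehicle A and vehicle D. Of these 12, 5 had a higher and 7 a lower mean under AM6545, with sums of 575 to 613 CPM against 573 to 691 CPM. In bulk samples, fewer cells of a type and less RNA per cell cannot be told apart.

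**Figure D2:**
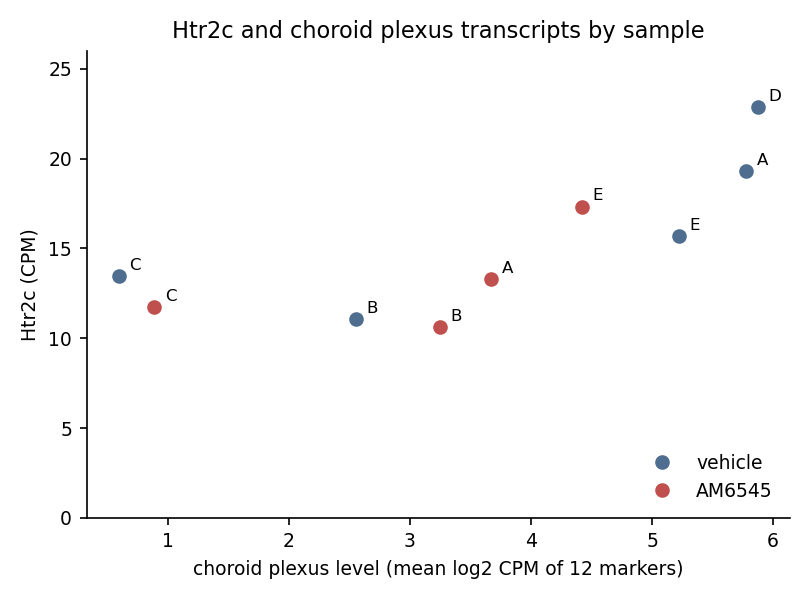
Htr2c level in CPM (vertical axis) against the mean log2 CPM of 12 choroid plexus markers (horizontal axis), 1 point per sample, lettered, with vehicle in blue and AM6545 in red. Vehicle D and vehicle A, the samples with the most choroid plexus transcripts, have the highest Htr2c, at 22.9 and 19.3 CPM.

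Htr3a encodes the obligatory subunit of the 5-HT3 cation channel and in the forebrain is best known from interneurons born in the caudal ganglionic eminence. AM6545 samples A, B, C and E had 14.7, 15.2, 17.1 and 15.5 CPM. Vehicle samples A to E had 13.2, 14.5, 11.02, 14.0 and 13.5 CPM. Every AM6545 sample was above every vehicle sample; the closest were AM6545 A at 14.7 and vehicle B at 14.5 CPM. The means were 15.6 ± 1.04 CPM (SD, n = 4) and 13.2 ± 1.33 CPM (SD, n = 5), and the exact permutation p was 0.0159, two-sided and unadjusted, the smallest that 4 samples against 5 can give. The log2 fold change was 0.24 (SE 0.11, 95% interval 0.0036 to 0.47), with an edgeR p of 0.047 and an adjusted p of 0.653. This difference therefore did not pass the test over all genes, and over 19 alternatives the unadjusted p lay between 0.0318 and 0.139 and the adjusted p between 0.355 and 0.920. The antisense gene Gm32335 overlaps Htr3a on the opposite strand, with no row of its own in the table.

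Levels of 3 marker lists varied with Htr3a across the samples at an unadjusted p under 0.05, 2 against it and 1 with it. With the level of 7 markers of interneurons from the medial ganglionic eminence (MGE), led by Sst, it correlated at r = -0.91 (exact permutation p = 0.0013, adjusted p = 0.190) and rho = -0.78. Without AM6545 C and vehicle C, r was -0.67. Of these 7 markers, 6 had a lower mean under AM6545, and their sums were 373 to 389 CPM under AM6545 and 367 to 492 CPM under vehicle. With 6 markers of the ventral hippocampus, led by Nnat, r was -0.83 (exact permutation p = 0.0042, adjusted p = 0.316) and rho = -0.83, and r was -0.69 without vehicle A and vehicle C. All 6 had a lower mean under AM6545, with sums of 586 to 738 CPM against 721 to 1013 CPM, and none was at 0 in any sample. With 8 markers of dentate granule cells, led by C1ql2, r was 0.76 (exact permutation p = 0.00998, adjusted p = 0.361) and rho = 0.75, and r was 0.61 without vehicle C and vehicle E. Of these 8, 7 had a higher mean under AM6545, with sums of 320 to 364 CPM against 256 to 337 CPM. Since Htr3a separated the groups, these r values partly restate the group difference. As deviations from the group means, r was -0.94 for MGE interneurons, -0.65 for ventral hippocampus and 0.54 for dentate granule cells. The exact permutation p-values were 0.0017, 0.0847 and 0.222 (adjusted p = 0.260, 0.582 and 0.603). The part of dissection or cell makeup in the Htr3a difference was not tested. With 12 CGE interneuron markers, the class in which Htr3a is best known, r was -0.10 (exact permutation p = 0.766, adjusted p = 0.911). Htr3b, the partner subunit of the channel, had at most 2 counts in any library and was not tested.

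Htr4 encodes the 5-HT4 receptor, which raises the excitability of hippocampal neurons through cAMP. AM6545 samples A, B, C and E had 15.6, 11.8, 18.5 and 15.7 CPM. Vehicle samples A to E had 12.9, 12.7, 12.7, 13.5 and 13.7 CPM. The vehicle samples were the most uniform of any receptor, and 3 of 4 AM6545 samples lay above all of them while AM6545 B lay below. The means were 15.4 ± 2.73 CPM (SD, n = 4) and 13.1 ± 0.480 CPM (SD, n = 5). The log2 fold change was 0.23 (SE 0.12, 95% interval -0.03 to 0.50, edgeR adjusted p = 0.653). The exact permutation p was 0.0952 with all samples and 0.0357 without AM6545 B. Leaving out AM6545 B separates the groups fully, so 0.0357 is the smallest p these numbers allow, and no conclusion is drawn from it. Without AM6545 A, C or E, the exact permutation p was 0.214 each time. The log2 fold change was 0.34 without AM6545 B and 0.13 without AM6545 C.

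Htr6 encodes the 5-HT6 receptor, found almost only in the brain and on neuronal primary cilia. It was the least counted member, at 34 to 64 counts per library, with 1.80 to 2.71 CPM under AM6545 and 1.46 to 2.45 CPM under vehicle. AM6545 differed from vehicle by a log2 fold change of 0.15 (95% interval -0.30 to 0.61, edgeR adjusted p = 0.846), and of the 10 intervals this was the 1 that still held a 1.5-fold rise. Htr2c was the 1 member whose interval held a 1.5-fold fall. For the other 8 members, a change of 1.5-fold in either direction lay outside the 95% interval.

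Htr7 encodes the 5-HT7 receptor, a Gs-coupled receptor studied in circadian timing and in Fmr1 KO hippocampus. It was the steadiest receptor, with a coefficient of variation of 7.80% over the 9 samples. AM6545 samples A, B, C and E had 18.5, 18.2, 18.5 and 19.3 CPM. Vehicle samples A to E had 19.0, 20.4, 21.8, 16.5 and 19.1 CPM. All 4 AM6545 samples fell inside the vehicle range. Its log2 fold change was -0.06 (95% interval -0.27 to 0.16, edgeR adjusted p = 0.887).

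**Figure D3:**
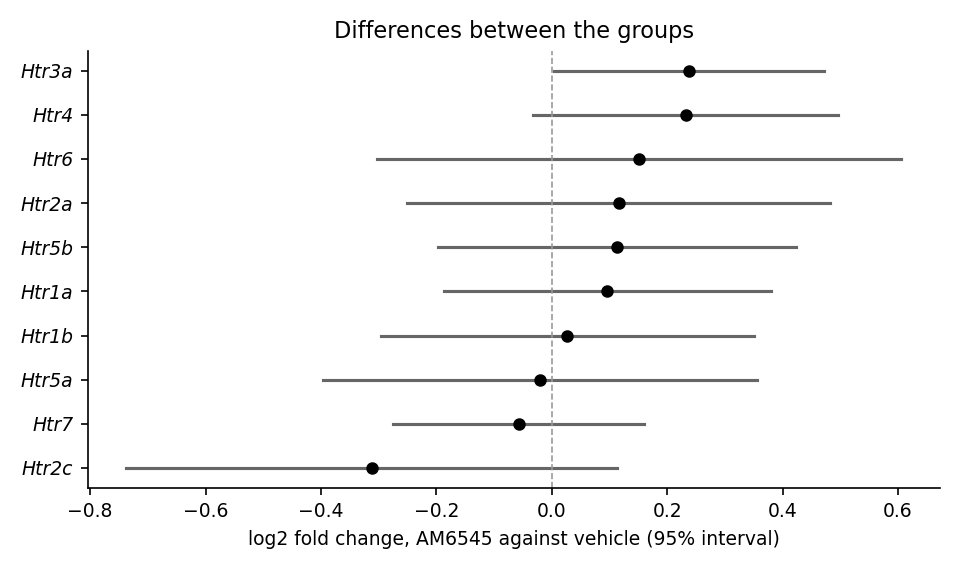
Log2 fold change of each receptor, AM6545 against vehicle, with its 95% interval from edgeR (4 against 5 samples). The points run from -0.31 (Htr2c) to 0.24 (Htr3a), and the interval of Htr3a is the one that leaves out 0, by a margin of 0.0036.

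Summed by coupling, the 4 Gi/o members had 54.2 ± 6.07 CPM under AM6545 (SD, n = 4) and 51.1 ± 1.53 CPM under vehicle (SD, n = 5). The 2 Gq/11 members had 24.4 ± 5.53 and 26.8 ± 4.07 CPM, and the 3 Gs members 36.2 ± 2.54 and 34.5 ± 1.55 CPM. As shares of the family's CPM, Gi/o made up 41.6% under AM6545 and 40.7% under vehicle, Gq/11 18.5% and 21.3%, the channel 12.04% and 10.5%, and Gs 27.9% and 27.5%. The sum of all 10 was 123 to 127 CPM in the vehicle samples and 114 (AM6545 B) to 146 CPM (AM6545 E) in the AM6545 samples. On the log2 scale, AM6545 E was above the mean of the 9 samples for each of the 10 receptors, by little for Htr6 and Htr7. The vehicle samples differed by little in total while their Htr2c and Htr5b levels were spread widely.

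Counts per kilobase of transcript give an order of the receptors in all 9 samples together. On this scale Htr4 was highest, at 10.6 ± 1.57 CPM per kilobase (SD, n = 9), ahead of Htr5b at 8.15 ± 1.29, Htr3a at 7.02 ± 0.832, Htr7 at 6.23 ± 0.485 and Htr1a at 6.21 ± 0.906. A lower group followed, with Htr2c at 3.20 ± 0.880, Htr1b at 2.01 ± 0.266, Htr2a at 1.91 ± 0.376, Htr6 at 1.14 ± 0.198 and Htr5a at 0.531 ± 0.060 CPM per kilobase. Neighbours in this order did not differ by more than their SD for Htr5b and Htr3a, Htr3a and Htr7, Htr7 and Htr1a, and Htr1b and Htr2a. The vehicle samples alone gave the same order, and in the AM6545 samples Htr1a and Htr7 changed places. The first place of Htr4 rests on the length used: the median of its 4 coding transcripts is 1328 bases and the longest is 4661 bases, and with the longest Htr4 had 3.03 CPM per kilobase and came sixth. Htr5b, with a single transcript of 1935 bases, was then first.

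**Figure D4:**
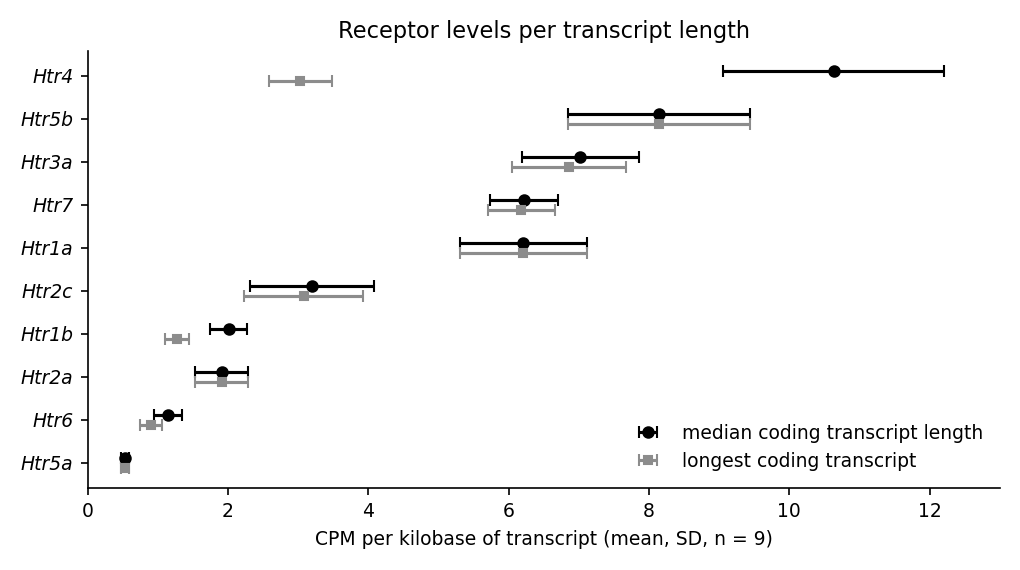
Level of each receptor in CPM per kilobase of transcript (horizontal axis), mean and SD over 9 samples, with the median length of the coding transcripts (black circles) and the longest (grey squares). Htr4 falls from 10.6 to 3.03 CPM per kilobase with the longest transcript, while Htr5b, Htr1a, Htr2a and Htr5a have the same value under both.

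From sample to sample, receptor pairs went in the same and in opposite directions about equally often. Of the 45 pairs, 24 had a positive and 21 a negative Pearson correlation of their log2 levels, from -0.88 to 0.71. At an unadjusted exact permutation p under 0.05, 7 pairs were counted, and 0 after adjustment over the 45 pairs (smallest adjusted p = 0.310). Htr5b and Htr7 had the lowest value, r = -0.88 (rho = -0.67, exact permutation p = 0.0078, adjusted p = 0.310), and r was -0.27 without vehicle C and vehicle D, so the relation rests on those samples. Htr1a and Htr7 had the highest, r = 0.71 (rho = 0.75, exact permutation p = 0.0296, adjusted p = 0.310), and r was 0.61 without AM6545 E and vehicle D. As deviations from the group means, Htr1a and Htr7 correlated at r = 0.82, with an adjusted exact permutation p of 0.0312 over the 45 pairs. The other versions for this pair did not pass. Their adjusted exact permutation p was 0.467 for rho, 0.848 without AM6545 E and vehicle D, and 0.219 under total counts without TMM. The pair couples to opposing G proteins, Htr1a to Gi/o and Htr7 to Gs. Htr1a also varied with Htr2a at r = 0.68 and with Htr1b at r = 0.67, whereas Htr2a and Htr6 varied against each other at r = -0.70. These 3 had adjusted exact permutation p-values of 0.310 to 0.312. Without AM6545 E and vehicle D, r fell to 0.42 for Htr1a with Htr2a and to 0.10 for Htr1a with Htr1b. For Htr2a and Htr6, r was -0.78 without AM6545 B and AM6545 E.

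**Figure D5:**
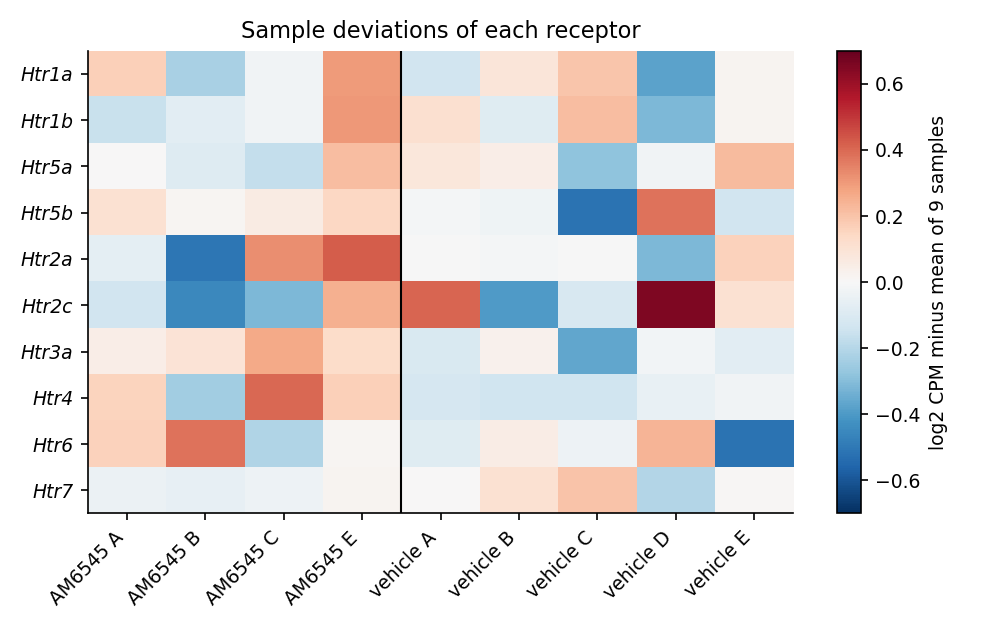
Deviation of each receptor (rows) in each sample (columns) from its mean log2 CPM over 9 samples, red for above and blue for below, with a line between the 4 AM6545 and 5 vehicle samples. AM6545 E is above the mean log2 CPM for all 10 receptors, by little for Htr6 and Htr7, and the other 8 samples mix both signs, as in vehicle D, which is high for Htr2c and Htr5b and low for Htr1a, Htr1b, Htr2a and Htr7.

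Across 150 correlations of receptors with marker lists, 17 had an unadjusted exact permutation p under 0.05 and 0 passed after adjustment (smallest adjusted p = 0.190). Beside the relations of Htr2c and Htr3a, Htr5b and isocortex markers had r = -0.88, but 0.16 without vehicle C and vehicle D. Htr5a and choroid plexus markers had r = 0.74, but 0.31 without AM6545 C and vehicle C. Htr4, like Htr3a, was lower in samples with more ventral hippocampus transcripts (r = -0.70, rho = -0.77, exact permutation p = 0.0338, adjusted p = 0.385), and r was -0.68 without vehicle A and vehicle C. As deviations from the group means, this r for Htr4 was -0.51 (exact permutation p = 0.0705, adjusted p = 0.582).

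The genes most like each receptor over the 9 samples, by Pearson r of log2 CPM among 14512 genes, were as follows. Htr1a was closest to Rab15 (r = 0.95), Arhgef10l and Zkscan16. Htr2c was closest to Erlec1 (0.96), Tom1l1 and Emb, and Htr2a to Kbtbd8 (0.97), Ndc1 and Asb1. Htr3a was closest to Icam5 (0.97), a telencephalic adhesion molecule, followed by Ncln and the CA1 gene Fibcd1. Htr7 was closest to Fam217b (0.96), Wdr37 and Gnao1, which encodes the Go protein. Htr5b was closest to Slc3a2 (0.97), Yipf3 and Nucb1, and Htr4 to Frem3 (0.92), Trhde and Scube1. Htr1b was closest to Zfp329 (0.93), Zfp992 and Zxdb, and Htr5a to Sh3bp2 (0.96), Sik1 and Ccdc60. Htr6 had the lowest best match of the 10, with Armc2 (0.91), followed by Ribc1 and Chtf8. With 9 samples, such values are usual: the best match of any gene had a median r of 0.97, with a 5th percentile of 0.92.

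Of the other serotonin receptor genes, only Htr1f (a Gi/o-coupled receptor) was above the count filter, with 3.91 ± 0.611 CPM under AM6545 (SD, n = 4) and 4.02 ± 0.769 CPM under vehicle (SD, n = 5) and an edgeR adjusted p of 0.964. Htr1d had at most 9 counts in any library and Htr2b at most 6. Genes of serotonin synthesis, transport and breakdown were tested for 5 of 7, with 1 higher and 4 lower under AM6545 and 0 at an unadjusted p under 0.05. The most abundant was Maob, a mitochondrial monoamine oxidase, at 61.6 ± 3.78 and 64.4 ± 11.9 CPM. Slc6a4, the serotonin transporter of raphe axons, had at most 5 counts in any library. Tph2, the serotonin-making hydroxylase of raphe neurons, had 34 to 51 counts per library.

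Signalling genes downstream of the receptors gave 0 calls at the adjusted threshold in each list, as for all genes. At an unadjusted p under 0.05, the share over all genes tested was 7.21%. Of the Gi/o effectors, 4 were higher and 7 lower of 11 tested (of 12), 0 at an unadjusted p under 0.05 and a median log2 fold change of -0.04. Of the 12 Gq/11 effectors, 9 were higher and 3 lower (median 0.15), 2 of them at an unadjusted p under 0.05. Among them was Rgs2, which ends signalling by Gq, at 51.0 ± 2.61 against 64.0 ± 9.41 CPM (log2 fold change -0.33, edgeR adjusted p = 0.653). The most abundant gene of this list, Prkcb, which encodes a protein kinase C, had 813 to 900 CPM under AM6545 and 612 to 788 CPM under vehicle (log2 fold change 0.22, edgeR adjusted p = 0.653). In this list 3 of 12 genes had groups that did not overlap, beside 1.45% of all genes tested: Rgs2 was lower under AM6545, and Prkcb and Gna11, the latter named after its values were seen, were higher. The groups overlapped for every gene of the Gi/o and Gs lists. The lists were chosen with earlier results known, so the count does not measure an enrichment. Of the 12 Gs effectors, 10 were higher and 2 lower (median 0.11), with 1 at an unadjusted p under 0.05, Adcy3, the adenylyl cyclase of neuronal cilia, at 52.8 ± 5.10 against 41.3 ± 7.50 CPM (log2 fold change 0.35, edgeR adjusted p = 0.653). Of 13 partners and regulators of the receptors, 10 were higher and 3 lower (median 0.04), with 0 at an unadjusted p under 0.05. The most abundant genes of the other 3 lists, Gnai1, Gnas and Fyn, had log2 fold changes of -0.04, 0.02 and 0.04, with edgeR adjusted p from 0.913 to 0.970.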

How the data were processed

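Estimated counts per gene for 9 libraries were deposited by the authors as 1 table. Per the submitters' processing notes, the tools were Salmon 1.3 and DESeq2 1.30, and the builds named are GRCm39 and mm10. The annotation release and strand setting are not given in the sources used here, so no gene coordinates are given beyond RefSeq promoter windows (GRCm38.p6). Symbols (22155 of 22255 genes) and transcript lengths are from GENCODE M21. The values were rounded to whole numbers and tested with edgeR 4.0.16 (filterByExpr, TMM, quasi-likelihood F-test, Benjamini-Hochberg over 14512 genes, threshold 0.05) in R 4.3.3. Single CPM differences were tested by exact permutation over all 126 regroupings, and correlations by exact permutation of pairings, on log2 CPM with a prior count of 2 (scipy 1.17.1). Marker levels are means of log2 CPM. Similar transcripts were sought with blastn 2.17.0 (at least 95% identity over 100 bases). The scripts were tested on simulated data. Alternatives used DESeq2 1.42.0, limma 3.58.1, other scalings and filters, a replicate block, covariates and left-out samples. Named genes were all members, the other receptor genes, the most abundant gene and those at an unadjusted p under 0.05 of each pathway list, the most abundant gene of a marker list, and the 3 genes most like each member. A pathway gene that this rule names is not reported here. Members and lists were chosen with earlier results of these data known. A list of raphe neuron markers was not used for correlations, since 2 of its 6 genes passed the filter.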

Additional observations from a re-analysis of the deposited data

How the results depend on the processing

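No receptor passed the adjusted threshold under any of 19 alternatives to the fit, and over all genes the count was 0 to 1 when a sample was left out (1, Gm14308, without AM6545 A, named after its values were seen). Directions reversed, all near 0 and none past the adjusted threshold, as follows. With limma-voom, the log2 fold change was -0.033 for Htr1b and -0.021 for Htr2a. With the length trend removed it was -0.0073 for Htr1b, and with the choroid plexus covariate 0.042 for Htr5a. Without vehicle A and vehicle D, the 2 libraries highest in choroid plexus transcripts, it was -0.041 for Htr1a and -0.034 for Htr1b, with CPM differences of -0.699 and -0.137, and the Htr3a difference was 2.62 CPM (exact permutation p = 0.0571, the smallest these numbers allow). With the title letter as a replicate block (8 samples), Htr1b was at -0.048, or -0.200 CPM, and Htr3a at 2.57 CPM (exact permutation p = 0.125, the smallest that 4 pairs allow). The labels do not say that a letter marks a shared mouse or day. For letters A, B, C and E, same-letter samples correlated at -0.02, 0.04, 0.34 and -0.02. The highest value with another letter was 0.09, 0.14, 0.27 and 0.35, so the same letter was highest for C only. The letters were not taken to pair samples. The block changed no call at the adjusted threshold.

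Leaving out 1 sample in turn gave log2 fold changes of 0.0086 to 0.18 for Htr1a, -0.081 to 0.087 for Htr1b, -0.018 to 0.27 for Htr2a, -0.47 to -0.16 for Htr2c, 0.18 to 0.28 for Htr3a, 0.13 to 0.34 for Htr4, -0.10 to 0.036 for Htr5a, 0.02 to 0.24 for Htr5b, 0.04 to 0.24 for Htr6 and -0.11 to -0.01 for Htr7. The CPM differences were then 0.182 to 3.64 for Htr1a, -0.344 to 0.334 for Htr1b, -0.130 to 2.11 for Htr2a, -4.59 to -1.63 for Htr2c, 1.83 to 2.69 for Htr3a, 1.27 to 3.48 for Htr4, -0.191 to 0.0708 for Htr5a, 0.176 to 2.52 for Htr5b, 0.0655 to 0.368 for Htr6 and -1.48 to -0.142 for Htr7. Under total counts without TMM, 1 of the 150 marker correlations passed adjustment: Htr3a with ventral hippocampus markers (r = -0.94). Fold changes over all genes rose with transcript length (Spearman rho 0.24). Apart from the values given here, the cause of a change was not tested. Counting error limits Htr5a and Htr6 most, at 12.4% and 14.4% of their level.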
